A study of Mus musculus with 6 samples.

Results

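The genes followed here in neomycin-damaged cochleae belong to the otic mesenchyme and to cochlear fibrocytes. They are Otos, Coch, Car3, Pou3f4, Tbx18, Tbx15, Myoc, Otor and Epyc, matched by gene symbol, and all 9 of 9 were found among the 24421 symbols of the count table. Otos and Myoc were chosen by their large rises in CPM after neomycin in these same libraries, so their differences are given as a description with no test. RNA was sequenced from explants of wild-type (WT) mouse cochleae taken at postnatal day 2, with 3 samples per group and 6 to 8 cochleae pooled for each sample. In the neomycin group, 12 h of culture came before 1 mM neomycin, an aminoglycoside that kills hair cells (HCs), which stayed on for 6 h, and 5 days of culture with 10 μM EdU, a label of DNA synthesis, came after it. Explants of the control group were treated as not having received neomycin, since their treatment label reads control, although the protocol text is the same for all 6 samples. Dissection had taken off the tectorial membrane, the modiolus and the anlage of the stria, and the sources used here do not describe how much of the spiral ligament remained on the explants. The RNA came from whole explants, so fewer or more cells of one type and less or more RNA per cell cannot be told apart.

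Fibrocytes are the connective tissue cells of the spiral ligament and the spiral limbus. They arise from periotic mesenchyme, secrete a collagen-rich matrix and help to carry potassium back toward the endolymph. Otospiralin (Otos) and cochlin (Coch) are secreted proteins for which these cells are the best known cochlear source, and mutations of the human gene for cochlin cause progressive deafness. Otoraplin (Otor) is a small secreted protein of the melanoma inhibitory activity (MIA) family, first described as a fibrocyte-derived protein. Pou3f4 and Tbx18 are transcription factors of the otic mesenchyme that are needed for normal fibrocytes. Epiphycan (Epyc), a small leucine-rich proteoglycan, is also known from cochlear supporting cells, so its place on a fibrocyte list rests on the list and not on these bulk data.

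Total counts ran from 50471116 to 66068108 per library. All 9 members had enough counts to be tested, among 15988 genes. Levels are in CPM, that is, counts after TMM brought the libraries to the same scale, and a gene was called when its adjusted p-value in edgeR's quasi-likelihood test was under 0.05 and its fold change was over 1.5. Of all genes tested, 8.84% were called, 2.24% as higher after neomycin and 6.60% as lower, and the median log2 fold change was -0.00408. HC markers fell, with 8 of 9 called lower and a summed level of 452 to 589 CPM in control against 62.6 to 88.0 CPM after neomycin.

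Otos, Myoc, Car3 and Otor were the members with the largest log2 fold changes. Otos and Myoc were not tested, since they were chosen for that rise. Of the other 7 members, 2 were called, Car3 and Otor, beside the 2.24% of all genes called higher, and none was called lower. These 7 were also chosen with earlier results of these data known, so the shares are a description. An adjusted p-value under 0.05 without a fold threshold was reached by 3 of these 7 (Car3, Otor and Tbx18), against 29.0% of all genes tested. The groups did not overlap for 4 of these 7, against 43.5% of all genes tested. They also did not overlap for Otos and Myoc, which were chosen for their rises. The plot of member levels shows each library.

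**Figure D1:**
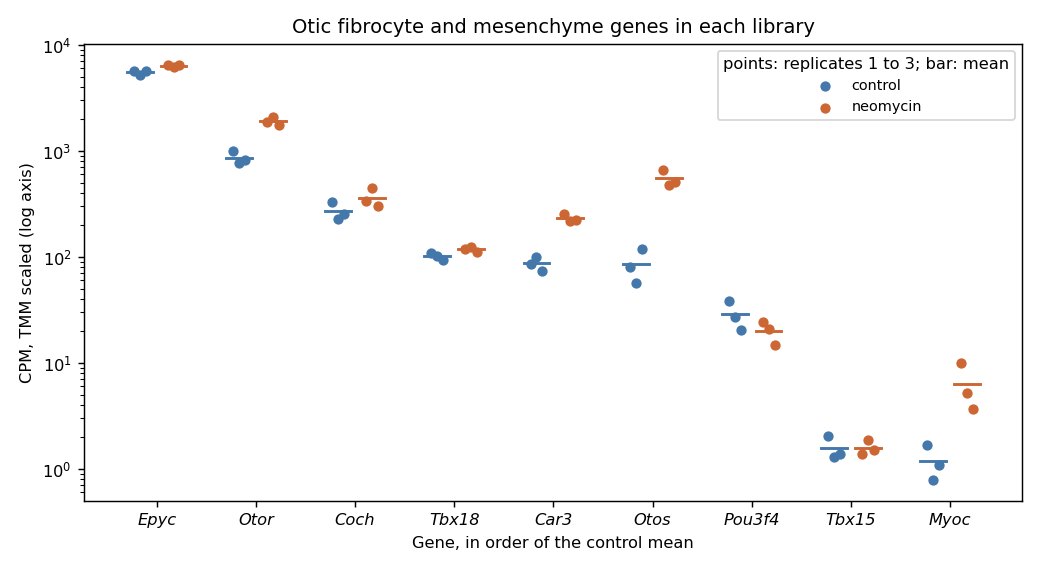
CPM after TMM scaling on a log axis for each of the 9 genes, in the order of the control mean, with 1 point per library (blue, control; orange, neomycin) and a bar at the group mean. Otos went from a mean of 85.2 to 550.3 CPM and Otor from 858 to 1904 CPM with no overlap between groups, while the points of Pou3f4 and Tbx15 overlap.

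The sequences before the start sites are shown for the 3 members with the largest rises that had a window, and for Coch, a fibrocyte gene that was not called. RefSeq gave a promoter window for 7 of the 9 members, 8 windows in all, on the mouse build GRCm38.p6 (mm10), and Car3 and Tbx15 had none. Each run is the 250 bases before the annotated start, 5′ to 3′ on the gene's own strand, with a matched motif in capitals. The Otos window lies at chr1:92648842-92649091 on the minus strand, and its capitals mark CATTCC, the core that TEAD factors bind. The other windows lie on the plus strand at chr1:162638900-162639149 for Myoc, chr2:143078143-143078392 for Otor and chr12:51593091-51593340 for Coch. The capitals in Myoc and Otor mark the TATA box TATAAA.
Otos: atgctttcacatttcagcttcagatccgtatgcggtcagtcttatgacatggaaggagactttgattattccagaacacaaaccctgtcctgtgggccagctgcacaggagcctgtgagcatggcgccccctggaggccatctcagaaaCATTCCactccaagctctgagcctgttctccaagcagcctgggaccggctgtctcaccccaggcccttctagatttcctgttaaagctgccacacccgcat
Myoc: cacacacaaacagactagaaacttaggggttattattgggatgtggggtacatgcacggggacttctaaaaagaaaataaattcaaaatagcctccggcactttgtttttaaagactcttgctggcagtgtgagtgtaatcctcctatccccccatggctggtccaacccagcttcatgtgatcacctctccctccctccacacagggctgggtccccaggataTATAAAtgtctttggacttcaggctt
Otor: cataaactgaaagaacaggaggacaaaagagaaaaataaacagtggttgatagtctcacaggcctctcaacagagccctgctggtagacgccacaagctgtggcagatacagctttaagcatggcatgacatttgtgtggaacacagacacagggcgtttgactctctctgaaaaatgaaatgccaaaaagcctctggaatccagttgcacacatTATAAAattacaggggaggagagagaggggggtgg
Coch: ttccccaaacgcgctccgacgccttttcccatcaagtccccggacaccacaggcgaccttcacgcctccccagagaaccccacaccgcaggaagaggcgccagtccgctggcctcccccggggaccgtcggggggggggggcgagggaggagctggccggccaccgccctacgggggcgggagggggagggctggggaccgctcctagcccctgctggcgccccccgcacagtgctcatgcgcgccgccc

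The 4 short motifs were looked for on both strands of the 8 windows, and no matches overlapped. The TATA box TATAAA was found in 2 member windows, 26 to 21 bases before the start of Myoc and 35 to 30 bases before the start of Otor, and in 12.4% of all 32851 windows and in 1062 of the 15179 windows of tested genes. The TEAD core CATTCC was found in 2, at 101 to 96 bases before the start of Otos and at 188 to 183 bases before the second of 2 starts of Epyc, and in 12.6% of all windows. The octamer core ATGCAAA, a short form of the POU site, was found once, at that second Epyc start, and in 4.12% of all windows. The T-box core AGGTGT was in none of the 8 and in 11.8% of all windows. A match is a description of letters and not a bound site. The windows also differed in base composition. The Coch window had a GC content of 74.8% and 24 CG dinucleotides, against a median of 59.2% over the windows of tested genes. Those of Otor (46.0%) and Myoc (46.8%), with 2 CG dinucleotides each, and that of Otos (54.0%) were below that median, while Otos was above the median of 52.4% over all 32851 windows.

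Otos, at chr1:92644218-92648841 (minus strand), had the largest rise on the list. Its level was 80.4, 57.2 and 118 CPM in control replicates 1, 2 and 3, and 665, 479.9 and 506 CPM in neomycin replicates 1, 2 and 3. Every neomycin library was thus several times above the highest control library. The mean went from 85.2 ± 30.7 to 550.3 ± 100.5 CPM (SD, n = 3 each), a fitted log2 fold change of 2.69 ± 0.21 (SE), or 6.45-fold. This was the fourth largest log2 fold change of all genes tested, which is how the gene came to the list. Control libraries varied by 36.1% (coefficient of variation) and neomycin libraries by 18.3%, while counting error alone at the lowest count gave 1.83%.

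Myoc, at chr1:162639155-162649693 (plus strand), encodes myocilin, a secreted glycoprotein with an olfactomedin domain that is best known from the trabecular meshwork of the eye. It was a low transcript, with 117, 41 and 61 counts in the control libraries, or 1.70, 0.786 and 1.09 CPM. After neomycin it had 532, 310 and 198 counts, or 10.0, 5.25 and 3.69 CPM. The groups did not overlap, but neomycin replicate 1 was 2.72 times as high as replicate 3. The fitted log2 fold change was 2.39 ± 0.36 (SE), or 5.24-fold, the eighth largest of all genes tested. Without neomycin replicate 1 it was 1.90. The exons of Myoc overlap those of Myocos on the opposite strand, and the strand setting of the counting is not given in the sources used here, so reads of both cannot be told apart.

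Otor, at chr2:143078473-143081713 (plus strand), was among the most abundant transcripts of the explants. It stood at 988, 771 and 814 CPM in control and at 1875, 2094 and 1744 CPM after neomycin. All neomycin libraries were above all control libraries. The mean rose from 858 ± 115 to 1904 ± 177 CPM (SD, n = 3 each), by 1.15 ± 0.11 (SE) on the log2 scale or 2.22-fold, with an adjusted p-value of 2.81e-05 in edgeR. Its share of all counts went from 0.0879% to 0.186%. Otor was called under all 14 alternatives, with log2 fold changes from 0.80 after a correction for gene length to 1.27.

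Car3, at chr3:14863512-14872523 (plus strand), encodes carbonic anhydrase III, a cytosolic enzyme with low activity that is abundant in muscle and fat. It had 86.4, 99.5 and 74.4 CPM in control and 253, 217 and 223 CPM after neomycin, with no overlap. The mean rose from 86.8 ± 12.5 to 231 ± 19.3 CPM, by 1.41 ± 0.10 (SE) on the log2 scale or 2.66-fold, with an adjusted p-value of 2.66e-06 in edgeR. The summed markers of muscle and mural cells were at 64.4 to 76.3 CPM in control and 55.6 to 78.5 CPM after neomycin. The 4 tested markers, Acta2, Rgs5, Myh11 and Tagln, gave 0 calls, and Myog and Actc1 had too few counts to be tested. No list held fat markers, and the source of the Car3 rise was not tested. Car3 was called under all 14 alternatives, with log2 fold changes from 1.32 to 1.52.

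Coch, at chr12:51593341-51605771 (plus strand), did not pass the test. It had 332, 229 and 256 CPM in control and 339, 447 and 305 CPM after neomycin. Neomycin replicate 3 lay below control replicate 1, and neomycin replicate 2 was the highest of the 6. The log2 fold change was 0.42 ± 0.15 (SE) with a 95% interval from 0.10 to 0.74, and the adjusted p-value of 0.0503 in edgeR was just over the threshold. It passed 0.05 under 8 of 14 alternatives, at 0.00743 without control replicate 1, where its log2 fold change of 0.59 made it called as higher, 0.0476 without neomycin replicate 1 and 0.0278 without neomycin replicate 3, and was highest, at 0.259, without neomycin replicate 2. The mean level was 272 ± 53.0 CPM in control and 364 ± 74.1 CPM after neomycin.

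Epyc, at chr10:97644068-97682454 (plus strand), was the most abundant member and the fifth most abundant gene by CPM in control. It had 5647, 5245 and 5701 CPM in control and 6500, 6151 and 6504 CPM after neomycin. The groups did not overlap, and the replicates of each group lay within 1.09 and 1.06 times of each other. The log2 fold change of 0.21 ± 0.10 (SE) had an adjusted p-value of 0.132 in edgeR and a 95% interval from -0.01 to 0.42. Epyc took 0.566% of all counts in control and 0.624% after neomycin. Its exons overlap those of the long noncoding gene Gm10754 on the opposite strand, which had 1871 to 2904 counts per library.

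None of the 3 transcription factors of the list was called. Tbx18, at chr9:87702800-87731260 (minus strand), was at 109.7, 102 and 94.1 CPM in control and at 120.1, 123 and 112 CPM after neomycin. The groups did not overlap, by a narrow gap between control replicate 1 and neomycin replicate 3. The log2 fold change of 0.22 ± 0.08 (SE) passed the adjusted p-value threshold, at 0.0498 in edgeR, but at 1.16-fold it was far from the fold threshold and Tbx18 was not called. The adjusted p-value went over 0.05 when any of 5 libraries was left out, to 0.117 and 0.0938 without control replicates 2 and 3 and to 0.101, 0.190 and 0.0634 without neomycin replicates 1, 2 and 3, and to 0.0527 with no filter on low counts. Exons of the unconfirmed transcript D030062O11Rik overlap Tbx18 on the opposite strand.

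Tbx15, a T-box factor related to Tbx18 and best known from skeletal and skin development, lies at chr3:99240381-99354259 (plus strand). It was near the lower end of what was tested, at 2.03, 1.28 and 1.37 CPM in control and 1.38, 1.88 and 1.51 CPM after neomycin. The groups overlapped fully, with a log2 fold change of 0.02 ± 0.28 (SE) and an adjusted p-value of 0.966 in edgeR. The 95% interval from -0.59 to 0.63 leaves room for a change of about the fold threshold in either direction. The ratio of Tbx15 to Tbx18 in the same library was -6.06 ± 0.28 on the log2 scale in control and -6.23 ± 0.21 after neomycin (SD, n = 3 each), and the difference of -0.18 had p = 0.5 in an exact two-sided permutation test, whose smallest possible p is 0.1.

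Pou3f4, a POU-domain factor encoded by a single exon at chrX:110814280-110817207 (plus strand), is the gene of an X-linked deafness in humans. It had 38.4, 27.3 and 20.5 CPM in control and 24.4, 20.7 and 14.9 CPM after neomycin. The groups overlapped, since control replicate 3 lay below neomycin replicates 1 and 2. The log2 fold change was -0.52 ± 0.20 (SE), with a 95% interval from -0.97 to -0.08, and the adjusted p-value was 0.0734 in edgeR, so Pou3f4 was not called. It was 0.0133 without control replicate 3 and 0.0285 without neomycin replicate 1, where the gene was called lower, and 0.324 without control replicate 1. In both groups replicate 1 was the highest and replicate 3 the lowest.

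Compared per kilobase of exon, the members spanned several orders of magnitude. In control, Epyc (2160 ± 97.2 CPM per kb) and Otor (904 ± 121) stood far above Coch (90.8 ± 17.7). Car3 (30.3 ± 4.38), Otos (27.7 ± 9.97) and Tbx18 (21.6 ± 1.65) followed, and the SD range of Otos took in those of both its neighbours. Pou3f4 (9.80 ± 3.09) came next, and Myoc (0.573 ± 0.224) and Tbx15 (0.417 ± 0.109) were lowest, again within their SDs. After neomycin, Otos at 178 ± 32.6 CPM per kb stood next after Otor, its SD range meeting that of Coch at 121 ± 24.7, and Car3 was at 80.5 ± 6.73. In rank per kb among 15863 genes with a length, Otos moved from 1856 to 288, Car3 from 1687 to 636, Otor from 35 to 13 and Myoc from 13146 to 9229. Length matters most for Otos, whose exons sum to 3082 bases over all annotated transcripts but to 704 in the RefSeq transcript. With the RefSeq length its level per kb was 121 ± 43.7 in control, above the 102 ± 19.8 of Coch but within the SDs, and 782 ± 143 after neomycin.

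The relatives of the members, taken from lists of protein families, are shown in the plot of families. Cochlin joins an LCCL domain to von Willebrand factor A domains, and of its 10 tested relatives 3 were called higher and 0 lower. Of all genes tested, 2.24% were called higher and 6.60% lower, and the lists were chosen with earlier results of these data known. Vit (vitrin), which has both kinds of domain, rose from 4.51 ± 1.20 to 13.8 ± 2.51 CPM, by 1.61 ± 0.20 (SE) on the log2 scale with an adjusted p-value of 0.000147 in edgeR. The cartilage matrix genes Matn1 and Matn4 (matrilins) rose by 0.92 ± 0.14 and 0.86 ± 0.13. Among the 3 tested relatives of Otor, Mia, which is known from cartilage, rose from 1459 ± 295 to 2437 ± 159.6 CPM, by 0.74 ± 0.13 on the log2 scale (adjusted p = 0.00169, edgeR). Mia3, a membrane protein of collagen export, differed by -0.24 on the log2 scale, under the fold threshold (adjusted p = 0.0417, edgeR).

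**Figure D2:**
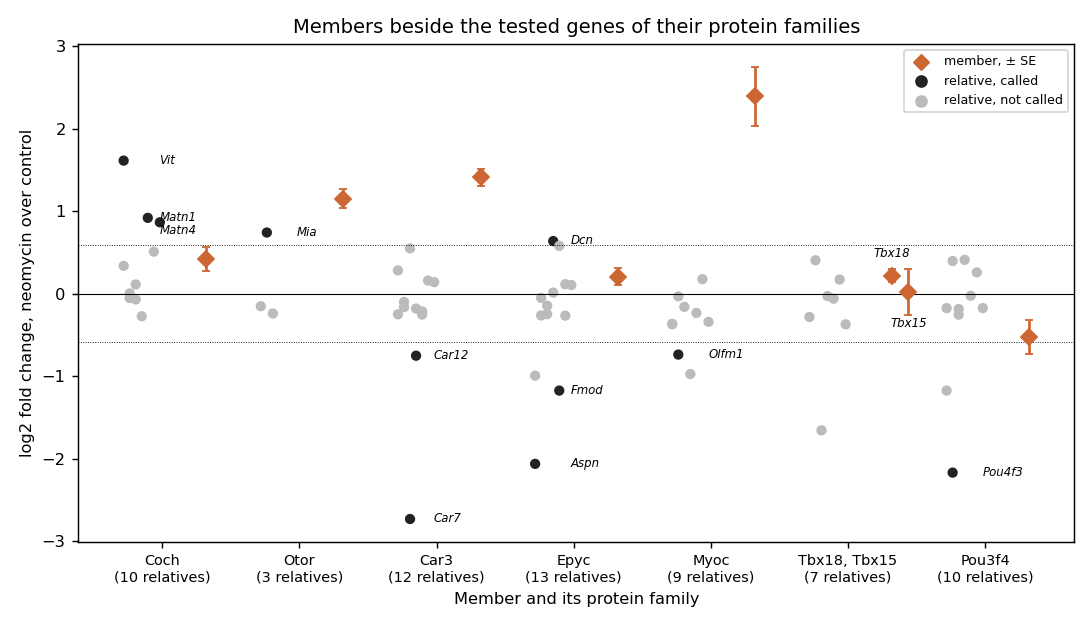
log2 fold change of neomycin over control for the members (orange diamonds, bars ± SE) and for the tested genes of their protein families (black, called; grey, not called), with dotted lines at 1.5-fold. Car3 (1.41) lies above all 12 of its tested relatives, of which Car7 (-2.73) and Car12 (-0.75) were called lower.

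Of the 12 tested carbonic anhydrases other than Car3, 0 were called higher and 2 lower. Car11 was higher by 0.55 ± 0.07 on the log2 scale (adjusted p = 0.000257, edgeR), just under the fold threshold at 1.46-fold. Car7 fell from 26.7 ± 5.45 to 4.02 ± 0.36 CPM, by 2.73 on the log2 scale (SE 0.15, adjusted p = 2.05e-07, edgeR), and Car12 fell by 0.75 (SE 0.14). Car2, whose gene is next to Car3 on chromosome 3, differed by -0.25 ± 0.07 on the log2 scale with an adjusted p-value of 0.0173 in edgeR, under the fold threshold. Among 13 tested relatives of Epyc, the small leucine-rich proteoglycans, Dcn (decorin) rose by 0.64 ± 0.10 on the log2 scale, from 840.1 ± 90.4 to 1306 ± 20.4 CPM. Those that fell were Aspn (asporin), from 3.50 ± 0.43 to 0.833 ± 0.22 CPM, and Fmod (fibromodulin), from 15.6 ± 5.96 to 6.89 ± 1.27 CPM. Lum (lumican), at 2877 ± 138 and 3092 ± 153 CPM, was not called (adjusted p = 0.433, edgeR).

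Of the 9 tested olfactomedin relatives of Myoc, 0 were called higher and 1 lower, Olfm1, which fell by 0.74 ± 0.09 on the log2 scale. The 7 other tested T-box genes gave no call in edgeR, and 2 of them reached an adjusted p-value under 0.05, Tbx1 at a log2 fold change of 0.40 and Mga at -0.28. The 10 other tested POU genes gave 1 call, the HC factor Pou4f3, which fell by 2.17 on the log2 scale. Within the POU3 class, Pou3f3 differed by 0.26 on the log2 scale (adjusted p = 0.0127, edgeR, under the fold threshold) where that of Pou3f4 was -0.52.

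Of 12 tested genes of fibrocyte ion transport, 0 were called in edgeR. Among those with an adjusted p-value under 0.05, the connexin Gjb6 (0.42 ± 0.07 on the log2 scale) and the claudin Cldn11 (0.37 ± 0.07) were higher, and lower was the water channel Aqp1 (-0.43 ± 0.11). The cotransporter Slc12a2 was at 337 CPM in control and 381 CPM after neomycin (adjusted p = 0.104, edgeR). Of 16 mesenchyme transcription factors 11 were tested. Of these, 1 was called higher and 1 lower, against 2.24% and 6.60% of all genes tested. Osr1 rose by 0.59 ± 0.09 on the log2 scale and Prrx1 fell by 0.59 ± 0.10, both close to the fold threshold. Foxc1 was higher by 0.34 ± 0.08 (adjusted p = 0.00688, edgeR), under the fold threshold.

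Markers of the cell types in the explants were set beside the members, as the map of members and markers shows. The 8 fibroblast markers, which include fibrillar collagens and Pdgfra, did not rise with the members. Their sum was 3642 to 4255 CPM in control and 3346 to 3438 CPM after neomycin, with 0 of 8 higher and 5 lower at an adjusted p-value under 0.05 in edgeR, of which 1 was called, Col1a1 (-1.20 on the log2 scale). Cartilage markers summed to 5148 to 6264 and 6187 to 6631 CPM, with 1 of 5 tested called higher, Matn1, which is also on the list of cochlin relatives. Nearly all of this sum was Col2a1 (means of 2812 CPM in control and 2931 CPM after neomycin) and Col9a1 (2745 and 3522 CPM). Matn1 was at 11.1 and 21.1 CPM, Acan at 3.88 and 3.92 CPM, and Hapln1 and Comp were lower still. Markers of the interdental cells and the greater epithelial ridge went from sums of 5042 to 6404 CPM to sums of 10110, 7530 and 6700 CPM in neomycin replicates 1, 2 and 3, with Tectb and Crabp1 of 6 called higher and none lower, and Calb1 lower by adjusted p-value alone. Neomycin replicate 1, the highest of these, was also the highest library for Otos, Myoc and Car3, while Otor was highest in neomycin replicate 2. Most of the sum in neomycin replicate 1 was Tectb (8154 CPM). Among control libraries the sum and Otos were highest in replicate 3, where Car3 was lowest. Myoc and Otor were highest in control replicate 1. Macrophage markers went from 49.0 to 58.9 CPM to 61.8 to 79.1 CPM, with Cd68 and C1qa of 5 called higher. The part of these cell types in the rises of Otos, Myoc, Car3 and Otor was not tested.

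**Figure D3:**
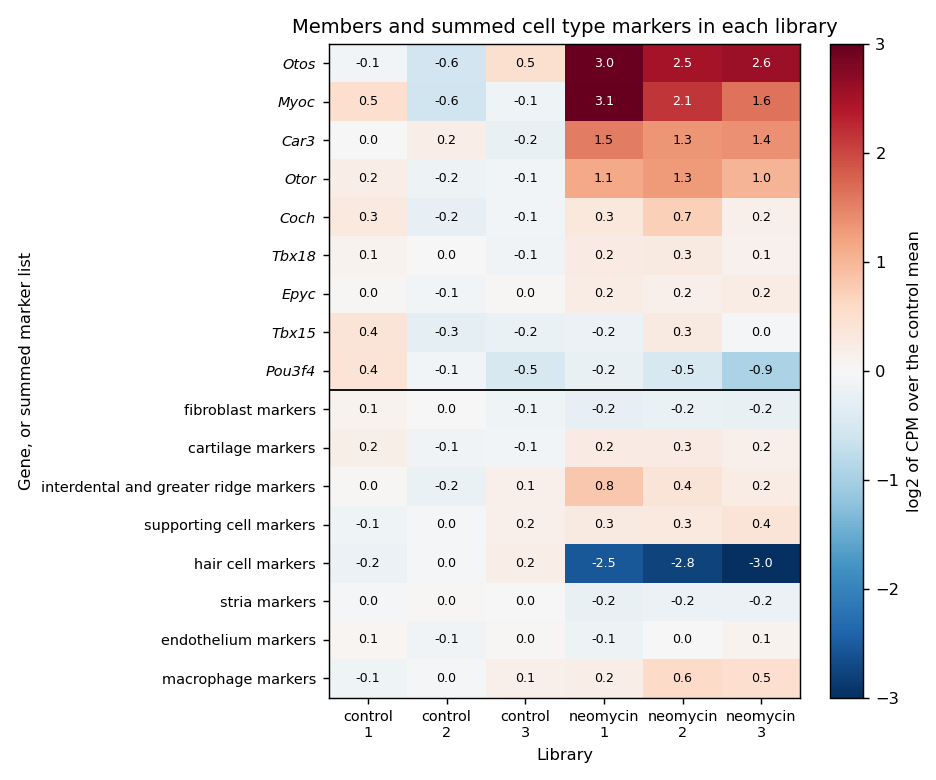
log2 of CPM over the control mean in each of the 6 libraries, for the 9 members above the line and for summed cell type markers below it, with the value written in each cell. Otos, Myoc, Car3 and Otor are positive in all 3 neomycin libraries and HC markers are negative in all 3, while fibroblast markers are slightly negative.

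Supporting cell markers summed to 1868 to 2290 CPM in control and 2484 to 2669 CPM after neomycin, with 0 of 7 called higher and 2 lower, Fgfr3 and Prox1. Most of this sum was S100a1, with means of 1561 CPM in control and 2144 CPM after neomycin. At an adjusted p-value under 0.05 in edgeR, 1 of the 7 was higher, S100a1, and 3 were lower, Fgfr3, Prox1 and Lfng. Stria markers were at 129.8 to 136.5 CPM and 114 to 117 CPM with 0 of 7 called in edgeR. Endothelial markers summed to 272 to 302 and 264 to 315 CPM, most of it from Emcn (252 and 273 CPM), but 3 of 5 were called lower. Of these, Pecam1 fell from 9.78 to 1.49 CPM, Cdh5 from 8.81 to 2.12 CPM and Kdr from 11.01 to 5.67 CPM. Schwann cell and glial markers were at 509.8 to 566 and 492 to 524 CPM with 0 of 5 called. No marker on these lists was at 0 in every library.

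Taken per 1000 CPM of summed fibroblast markers in the same library, Otos was 7.41 times as high after neomycin, Myoc 6.27, Car3 3.11 and Otor 2.59 times, with no overlap between the groups. Coch overlapped between groups in CPM but did not on this scale, at 57.5 to 77.9 in control and 89.5 to 130 after neomycin, or 1.56 times. Tbx18 was at 25.6 to 25.8 and 33.0 to 35.9, or 1.36 times, and Epyc was 1.34 times as high. The fibroblast sum was lower after neomycin, which raises all of these ratios. Most of it was Col3a1 (means of 1316 CPM in control and 951 CPM after neomycin), Vim (1052 and 1025 CPM), Col1a2 (712.5 and 744 CPM) and Fn1 (471 and 352 CPM). The fibroblast scale follows these genes and is not a measure of fibroblast content. Per 1000 CPM of cartilage markers instead, Otos was 5.51, Myoc 4.62, Car3 2.27 and Otor 1.91 times as high. On this scale Coch overlapped again (1.15 times), and Tbx18 and Epyc were at 0.997 and 0.989 times. The cartilage scale was nearly all Col2a1 and Col9a1, so it follows these genes and is not a measure of cartilage content. Pou3f4 was lower on both scales, at 0.825 times with overlap by fibroblast markers and at 0.604 times without overlap by cartilage markers.

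For each member the genes nearest in pattern over the 6 libraries were found by the root mean square distance of their centred log2 CPM, as a description with no test. Umodl1 (9.36 to 57.7 CPM, distance 0.306, r = 0.977) and Il13ra2, a decoy receptor of interleukin 13 (1.25 to 5.75 CPM, distance 0.431), were nearest to Otos, followed by Myoc itself (0.500). Il13ra2 was also among the 3 nearest to Myoc, after Pla2g4d and the apelin receptor Aplnr. Otor was nearest to Sult1a1 (distance 0.112), Apod, which encodes the lipid carrier apolipoprotein D (249 to 529 CPM, distance 0.125, r = 0.978), and Sh3gl3. Car3 was nearest to 2700069I18Rik, the macrophage elastase Mmp12 (3.68 to 9.48 CPM, distance 0.0987) and Rapsn. Coch was nearest to Wif1, a secreted Wnt inhibitor (62.9 to 83.1 CPM, distance 0.0511, r = 0.987), followed by Lrrc17 and Ptger2.

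The members with small differences had close neighbours in pattern that moved as little. Tbx18 was nearest to Mex3b, Nr1h4 and Spats2l, Tbx15 to genes that include Pcdhb19 and Ttyh2, and Epyc to Dus3l, Abhd12 and Vcp. Pou3f4 was nearest to Pcdhgb7 (distance 0.0306, r = 0.997), Pcdhga2 and Ppfia2, the first 2 being clustered protocadherins that share exons with each other. The libraries share the contrast itself, so a gene with a like fold change is near by construction.

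**Figure D4:**
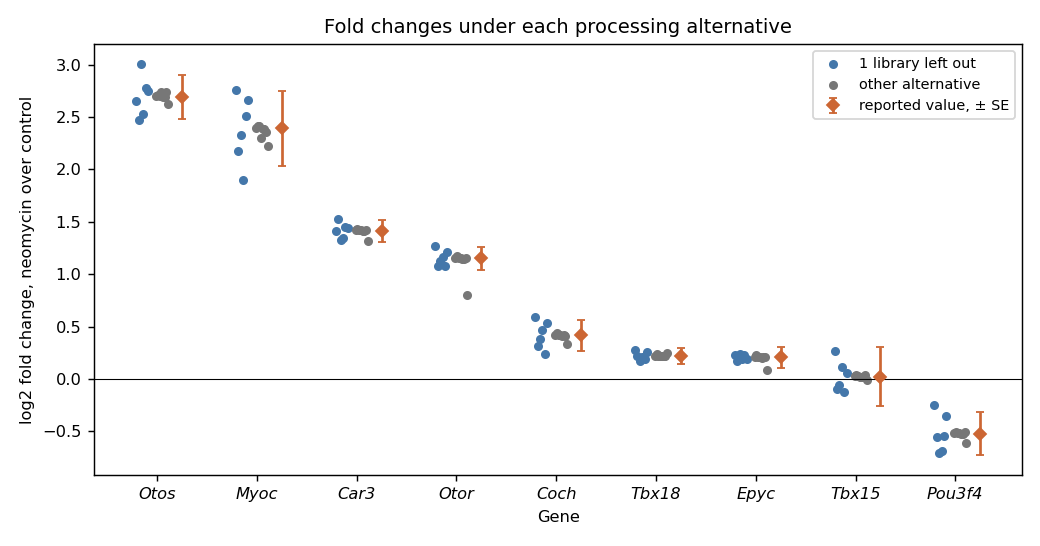
log2 fold change of neomycin over control for each member under the processing alternatives (blue, 1 library left out; grey, another scaling, test, filter, block or length correction) beside the reported value (orange diamond, bars ± SE). Otos, Myoc, Car3 and Otor stay above 0.80 throughout, and Tbx15 lies on both sides of 0.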

How the data were processed

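RNA was measured in 6 libraries, 3 control and 3 neomycin. The authors called bases with CASAVA 1.8, trimmed reads with Trimmomatic 0.23, aligned them to mm10 with HISAT2 and counted them with HTSeq, and they deposited raw counts per gene symbol. Total counts ran from 50471116 to 66068108, and precision at this depth was set by the spread between replicates for all but the lowest genes. The labels do not say that the pools came from separate litters or cultures, so p-values measure the spread between these samples. The strand setting and the handling of reads with several matches are not given in the sources used here.

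Counts were scaled by TMM and filtered with filterByExpr in edgeR 4.0.16 (R 4.3.3), and 15988 genes were tested with the quasi-likelihood test and Benjamini-Hochberg adjustment over all of them. Calls were made at an adjusted p-value below 0.05 with a change above 1.5-fold, as in the study's methods, which used DESeq2. SE is the size of the log2 fold change over the square root of F. Levels per kb used exon lengths of the GENCODE mm10 annotation, which held 23376 symbols directly and 668 by an older symbol. Patterns used log2 CPM with a prior count of 2, among genes with a mean over 1 CPM. Replicates differed beyond sampling noise, so each counted as 1 sample.

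The members and all lists were chosen with earlier results of these data known. Named genes are the members, at most 4 called genes of each list with the largest fold, those without which a small count cannot be read, and the 3 nearest patterns of each member. Some genes that this rule names are not reported here. Pou3f3, Lum, Car2, Car11, Slc12a2 and the marker genes that were not called were named for context after their values were seen.

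Alternatives were other scalings, DESeq2 1.42.0, limma-voom (limma 3.58.1), other filters, no fold threshold, a length correction (lowess, span 0.3), the replicate number as a block and each library left out. The use of RefSeq transcript lengths was chosen after seeing the data. The code was tested on simulated data. Figures used matplotlib 3.10.9 in Python 3.11.15.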

Additional observations from a re-analysis of the deposited data

How the results depend on the processing

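Otos, Myoc, Car3 and Otor kept their direction under all alternatives, and Car3 and Otor kept their calls. The number of genes called higher was 358 and became 233 with the gene length correction and 2058 with no fold threshold, and the number called lower, 1055, became 2571 with no fold threshold. With each library left out in turn the counts ran from 237 (without control replicate 2) to 513 higher and from 800 to 1159 lower. The members called, 2 without Otos and Myoc, were 2 or 3. The log2 fold change of Tbx15 reversed with the length correction (-0.011) and ran from -0.12 to 0.27 with a library left out, all less than 1 SE from the reported value. Relative to cartilage markers in place of fibroblast markers, Tbx18 went from 1.36 to 0.997 times and Epyc from 1.34 to 0.989 times. Both ratios use the same member CPM for every member, so the shifts between these scales come from the marker sums. Fibroblast markers summed to 3642 to 4255 CPM in control and 3346 to 3438 CPM after neomycin. For cartilage markers the sums were 5148 to 6264 and 6187 to 6631 CPM. The cause of the shifts under the other alternatives was not tested.

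The replicate numbers were not taken as pairs, since no label ties them and the deviations of same-numbered samples correlated only weakly, at 0.165, 0.0264 and 0.0949. Control replicates 1 and 3 correlated best with their own number and control replicate 2 with neomycin replicate 3 (0.0325), so whether the numbers mark a shared batch is not known. With the number as a replicate block, 376 genes were called higher and 1089 lower, Car3 and Otor stayed called, and the adjusted p-value in edgeR was 0.00091 for Pou3f4 (log2 fold change -0.50), 0.0361 for Coch and 0.0311 for Epyc. Counting error at the lowest count was 12.2% for Tbx15 and 15.6% for Myoc, against coefficients of variation between replicates of 26.1% and 39.0% in control and 16.5% and 52.2% after neomycin. DESeq2 gave Epyc an adjusted p-value of 0.0132 and Coch one of 0.163.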

Other observations

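The genes beside the members on their chromosomes were read out as well, 2 on each side, 36 in all. Of these, 28 were tested and 1 was called, Pcsk2, against 8.84% of all genes tested. At an adjusted p-value under 0.05 in edgeR, 5 of the 28 were higher and 2 lower, against 29.0% of all genes tested. The 5 were Pcsk2 and Snrpb2 beside Otor, Scfd1 and Ap4s1 beside Coch, and Sh3bgrl beside Pou3f4. Pcsk2, a prohormone convertase gene downstream of Otor, rose from 32.1 ± 4.45 to 48.2 ± 1.27 CPM (log2 fold change 0.58 ± 0.09, adjusted p = 0.00102, edgeR). Snrpb2, the gene on the other side of Otor, was 0.46 higher on the log2 scale (adjusted p = 0.00227, edgeR), under the fold threshold. Beside Otos, Gpc1 was at 339.5 CPM in control and 302 CPM after neomycin and was not called. Car3 lies between Car1, which was at 0.242 and 0.295 CPM, and Car2. Epyc lies in a row with Kera and Lum, further genes of small leucine-rich proteoglycans, and neither of these was called (log2 fold changes of 0.11 and 0.10).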
